A study of Saccharomyces cerevisiae with 11 samples.

Results

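Vitamin B6 synthesis and uptake in budding yeast was followed through 6 genes, chosen by symbol: SNZ1, SNO1, SNZ3, SNO3, PDX3 and TPN1. All 6 were measured, each by 1 probe set, among the 5449 Saccharomyces cerevisiae genes of the arrays. RNA was measured on Affymetrix arrays in 4 samples of yeast expressing CFTR, the human chloride channel whose gene is mutated in cystic fibrosis, and in 7 samples with a vector control, whose titles mark them as a re-analysis. The CFTR cells carried the plasmid pRS426PPGK-CFTR-3HA, with a PGK promoter and an HA tag, and the control cells the plasmid pRSGPD426, with a GPD promoter, so the groups also differ in promoter. All cultures shared growth at 26 degrees in selective medium, harvested at mid log phase, and the labels give no strain or medium recipe. The genes were proposed with their levels on these 11 arrays already known, so their values are given as a description, with no p-value. Where the number of them that passed the fit over all genes is given, it stands beside the share of all genes that did, and nothing is read from it. The gene lists set beside these 6 were also chosen with earlier results of these data known. Many genes named from the lists were those of smallest p. Adjusted p-values of such genes are therefore a description and not a fresh test.

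Pyridoxal phosphate, the active form of vitamin B6, is the cofactor of transaminases and of many other enzymes of amino acid metabolism. Yeast makes it with a paired enzyme, in which a Sno protein frees ammonia from glutamine and a Snz protein builds the ring, or takes up pyridoxine and converts it. SNZ1 and SNO1 are known for induction in starved and stationary cells. The SNZ2-SNO2 and SNZ3-SNO3 pairs lie beside genes of the THI5 family, which make the pyrimidine part of thiamine (vitamin B1) from pyridoxal phosphate and histidine, and are known to respond to thiamine.

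In the R64 gene order SNZ1 (YMR096W) and SNO1 (YMR095C) are neighbours on chromosome XIII. SNO3 (YFL060C) and SNZ3 (YFL059W) are neighbours on chromosome VI, with THI5 next to SNZ3, while SNO2, SNZ2 and THI12 stand side by side on chromosome XIV in the same way. PDX3 is YBR035C on chromosome II and TPN1 is YGL186C on chromosome VII. The probe sets of SNZ3 and SNO3 carry the suffix that Affymetrix gives to sets matching more than 1 transcript, as do those of 100 of the 5449 genes. SNZ2 and SNO2 have no probe set of their own in the annotation used, so the values given below for SNZ3 and SNO3 may include signal of SNZ2 and SNO2.

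Levels are log2 of the probe set intensity, which the deposited table scales to a mean of 1 on every array. As a measure of background, 95% of the 5217 probe sets matched to no S. cerevisiae gene had a mean log2 level under -1.17. The arrays carry sample codes in their titles: 7 to 10 for CFTR, and 3 to 5 (replicates 1 to 3) and 11 to 14 (replicates 4 to 7) for the vector. What the codes stand for is not given in the sources used here. The CFTR codes form a range of their own, and a batch that follows the codes cannot be told apart from CFTR. Some vector arrays were nearly alike: across genes the SD of the log2 difference was 0.11 for replicates 1 and 2 and between 0.10 and 0.13 within replicates 5 to 7, where the 21 vector pairs had a median SD of 0.48. Whether these are repeat hybridisations is not given. Vector replicate 3 differed from the CFTR arrays by SDs of 0.16 to 0.28 and from the other vector arrays by 0.38 to 0.52. No label ties an array to its own culture, so the errors measure the spread between arrays, which may be technical.

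The SNZ1-SNO1 pair was higher, and the SNZ3-SNO3 pair lower, in CFTR arrays than in the mean of the vector arrays. SNZ1 was 2.45-fold higher in CFTR. SNO1 was 2.37-fold higher as measured, but it was under the background limit on all 7 vector arrays and on 2 of the 4 CFTR arrays, so this fold is uncertain. In CFTR, SNZ3 was 2.02-fold and SNO3 1.60-fold lower. PDX3 and TPN1 differed by 1.17-fold and 1.07-fold. By limma over all genes, with a Benjamini-Hochberg adjusted p under 0.05 as the call, 0 of the 6 genes were called, beside 0.918% of all genes. Without the adjustment, 4 of the 6 and 989 of the 5449 had a p under 0.05. Since the 6 were chosen with these arrays known, nothing is read from that count. Without vector replicate 3, SNZ1, SNO1 and PDX3 were called higher and SNO3 lower, in a fit that called 9.56% of all genes.

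**Figure D1:**
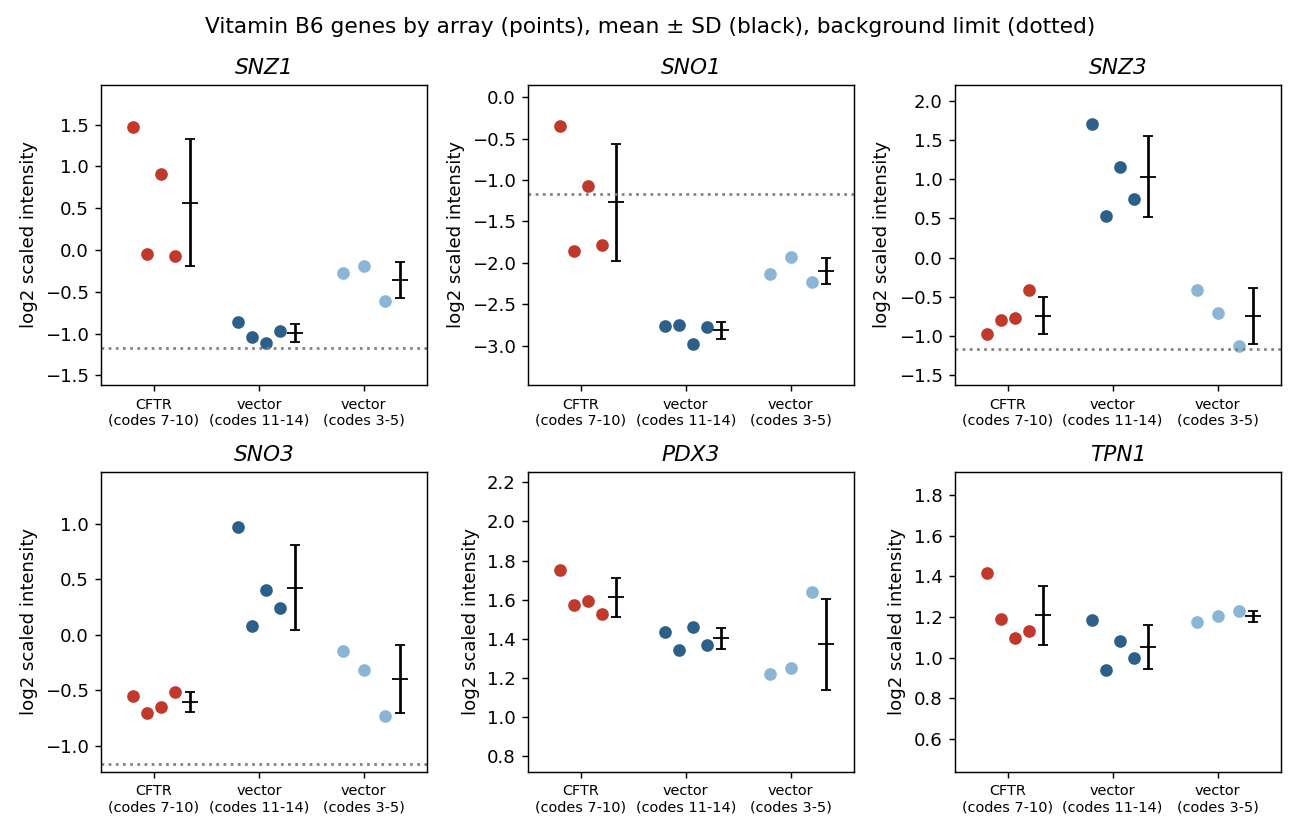
Log2 scaled intensity of the 6 genes on each array (points, in order of sample code within each group), with mean and SD in black and the background limit of -1.17 dotted where it falls in the panel. SNZ1 and SNO1 are highest in CFTR arrays, SNZ3 and SNO3 in the vector arrays of codes 11 to 14, and PDX3 and TPN1 stay within 0.53 and 0.48 over all arrays.

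SNZ1 encodes the synthase subunit of the pair that yeast induces in stationary phase. Its log2 levels in CFTR replicates 1 to 4 were -0.07, 1.47, -0.05 and 0.91. In the vector arrays they were -0.86, -1.04, -1.11 and -0.97 for replicates 4 to 7, and -0.28, -0.19 and -0.61 for replicates 1 to 3. All 4 CFTR arrays lay above all 7 vector arrays, which held wholly for 2.4% of all genes in that direction. CFTR replicates 2 and 4 stood well above replicates 1 and 3, which exceeded vector replicate 2 by little. CFTR arrays averaged 0.57 ± 0.76 (SD, n = 4), and vector arrays -0.72 ± 0.37 (SD, n = 7), a log2 difference of 1.29 (SE 0.29). Leaving out CFTR replicate 2, the highest array, gave 0.99. Across all genes, the SD of SNZ1 over the 4 CFTR arrays was at the 99.7th percentile.

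SNO1 encodes the glutaminase subunit that feeds ammonia to Snz1. Its levels were -1.79, -0.35, -1.86 and -1.07 in CFTR replicates 1 to 4. The vector arrays had -2.77, -2.75, -2.98 and -2.78 in replicates 4 to 7, and -2.13, -1.93 and -2.24 in replicates 1 to 3. As for SNZ1, no vector array reached a CFTR array, and CFTR replicates 2 and 4 were the highest. SNO1 was 1.24 higher in CFTR on the log2 scale (SE 0.29), with CFTR arrays averaging -1.27 ± 0.71 (SD, n = 4) and vector arrays -2.51 ± 0.40 (SD, n = 7). Only CFTR replicates 2 and 4 lay above the background limit and 0 of the 7 vector arrays did, so the size of this difference is uncertain. With values under the limit set to it, the log2 difference was 0.23.

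SNZ1 and SNO1 varied together, with the limit that SNO1 was above the background limit on only 2 of the 11 arrays, and on 0 of the 7 vector arrays. Within an array the log2 difference of the 2 probe sets was 1.83 ± 0.11 (SD, n = 4) for CFTR and 1.79 ± 0.10 (SD, n = 7) for vector. Over the 11 arrays the 2 genes had a Pearson r of 0.99, and 0.97 over the vector arrays alone. These points share arrays and fall into groups by sample code, and r is given as a description. The size of a difference between 2 probe sets depends on their probes and says nothing of the ratio of the transcripts.

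SNZ3, a synthase subunit of the thiamine-linked pairs, showed the opposite order. Its levels were -0.41, -0.98, -0.80 and -0.78 in CFTR replicates 1 to 4, against 1.71, 0.53, 1.16 and 0.75 in vector replicates 4 to 7 and -0.41, -0.71 and -1.13 in vector replicates 1 to 3. Vector replicates 4 to 7 were high, and the CFTR arrays overlapped with vector replicates 1 to 3. Against all vector arrays the log2 difference was -1.01 (SE 0.47), with CFTR arrays at -0.74 ± 0.24 (SD, n = 4) and vector arrays at 0.27 ± 1.04 (SD, n = 7). The vector SD of SNZ3 was at the 99.4th percentile of all genes.

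SNO3, its glutaminase partner, followed the same pattern. It had -0.51, -0.55, -0.70 and -0.65 in CFTR replicates 1 to 4. In vector replicates 4 to 7 it had 0.97, 0.08, 0.41 and 0.24, and in replicates 1 to 3 it had -0.14, -0.31 and -0.73. The CFTR arrays were close together, and replicate 3 was the 1 vector array below them. The log2 difference was -0.68 (SE 0.25), with CFTR arrays at -0.60 ± 0.09 (SD, n = 4) and vector arrays at 0.07 ± 0.55 (SD, n = 7). SNZ3 and SNO3 had an r of 0.97 over the 11 arrays and of 0.97 over the vector arrays. Both probe sets may also read the second pair of genes, and the part of this in their likeness was not tested.

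The 2 synthase genes differed in opposite directions: the within-array log2 difference of SNZ1 over SNZ3 was 2.30 larger in CFTR than in vector arrays. Over the 11 arrays SNZ1 and SNZ3 had an r of -0.69. Their arrays form separate clusters, with vector replicates 4 to 7 high in SNZ3 and low in SNZ1, CFTR replicates 2 and 4 the reverse, and the other arrays low in SNZ3 and intermediate in SNZ1.

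**Figure D2:**
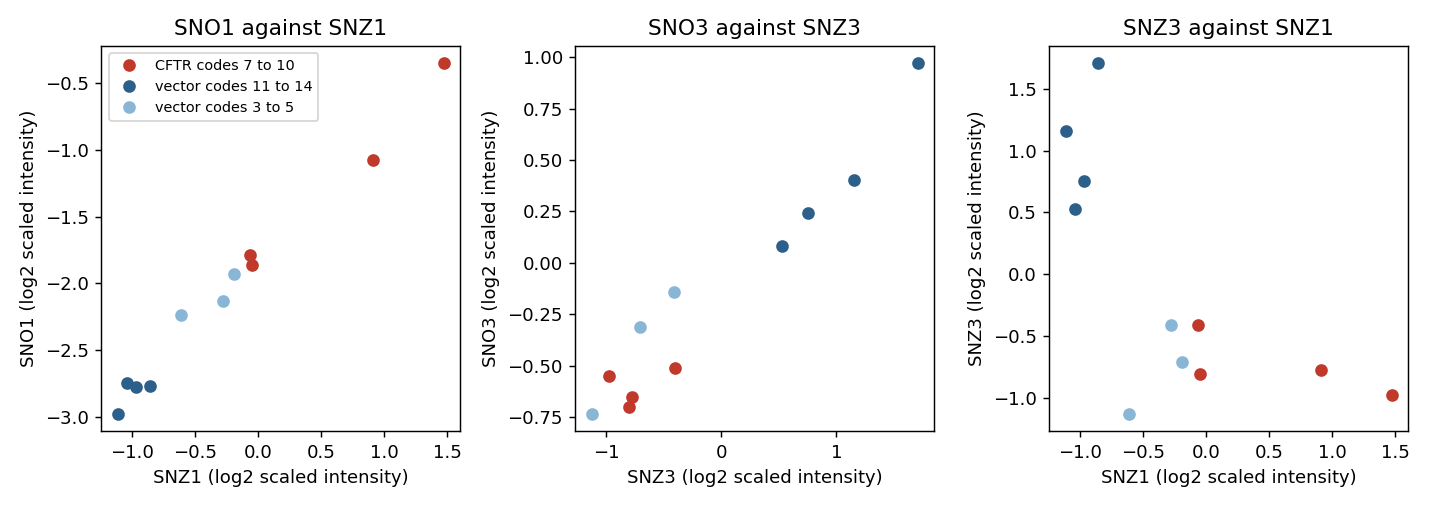
SNO1 against SNZ1, SNO3 against SNZ3 and SNZ3 against SNZ1, as log2 scaled intensity, 1 point per array, coloured by group and sample code. The points of each SNZ-SNO pair lie along a line (r of 0.99 and 0.97), with SNO1 under the background limit on all but 2 arrays, while in the right panel the vector arrays of codes 11 to 14 lie apart from the others, high in SNZ3 and low in SNZ1.

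PDX3 encodes the oxidase that turns pyridoxine phosphate and pyridoxamine phosphate into pyridoxal phosphate. Its levels were 1.52, 1.75, 1.57 and 1.59 in CFTR replicates 1 to 4, against 1.43, 1.34, 1.46 and 1.37 in vector replicates 4 to 7 and 1.22, 1.25 and 1.64 in replicates 1 to 3. Vector replicate 3 lay within the CFTR arrays, and the other 6 vector arrays below them. CFTR arrays averaged 1.61 ± 0.10 (SD, n = 4) and vector arrays 1.39 ± 0.14 (SD, n = 7), a log2 difference of 0.22 (SE 0.09).

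TPN1 encodes the pyridoxine transporter of the plasma membrane. CFTR replicates 1 to 4 had 1.13, 1.42, 1.19 and 1.10, and the vector arrays lay between 0.94 and 1.23 with a median of 1.18. The groups overlapped, with CFTR replicate 2 above every other array. CFTR arrays averaged 1.21 ± 0.14 (SD, n = 4) and vector arrays 1.12 ± 0.11 (SD, n = 7), and the log2 difference was 0.09 (SE 0.09). Over all 11 arrays the SD of TPN1 was at the 14.5th percentile of all genes, and that of PDX3 at the 28.5th. In CFTR replicate 2 the genes SNZ1, SNO1, PDX3 and TPN1 all had their highest level.

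Which controls were used set the size of most differences. In a model with the 2 code ranges of the vector as separate groups, SNZ1 differed in CFTR by 1.56 (SE 0.30) from codes 11 to 14 and by 0.93 (SE 0.32) from codes 3 to 5 on the log2 scale. For PDX3 these differences were 0.21 (SE 0.09) and 0.24 (SE 0.10). For SNO1 they were 1.55 (SE 0.27) and 0.83 (SE 0.30) as measured, uncertain in size because all 7 vector arrays were under the background limit. SNZ3 differed by -1.78 (SE 0.24) from codes 11 to 14 and by 0.01 (SE 0.26) from codes 3 to 5. SNO3 differed by -1.03 (SE 0.18) from codes 11 to 14 and by -0.21 (SE 0.20) from codes 3 to 5, the second of which turned to 0.01 with centring on array medians. TPN1 differed by 0.16 (SE 0.08) from codes 11 to 14 and by less than 0.01 (SE 0.09) from codes 3 to 5. Over all genes the median difference from codes 3 to 5 was -0.15, and 0.07 with centring on array medians. The median of the 6 genes there was 0.12, and 0.34 with that centring. Centring moves every gene alike, so the values near 0 of SNZ3 and TPN1 against codes 3 to 5 depend on the scaling. These comparisons share the CFTR arrays. Against codes 11 to 14, 4 of the 6 genes were called, SNZ1 and SNO1 higher and SNZ3 and SNO3 lower, beside 22.8% of all genes (13.8% higher and 8.99% lower). Against codes 3 to 5 limma called 0 of them, beside 0.752% of all genes. Without the adjustment, 3 of the 6 and 2273 of the 5449 genes had a p under 0.05 there, and nothing is read from this count either. All CFTR arrays lay above codes 11 to 14 for SNZ1, SNO1 and PDX3, as for 25.9% of all genes, and below them for SNZ3 and SNO3, as for 15.9%. They lay above codes 3 to 5 for SNZ1 and SNO1, as for 5.03%.

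**Figure D3:**
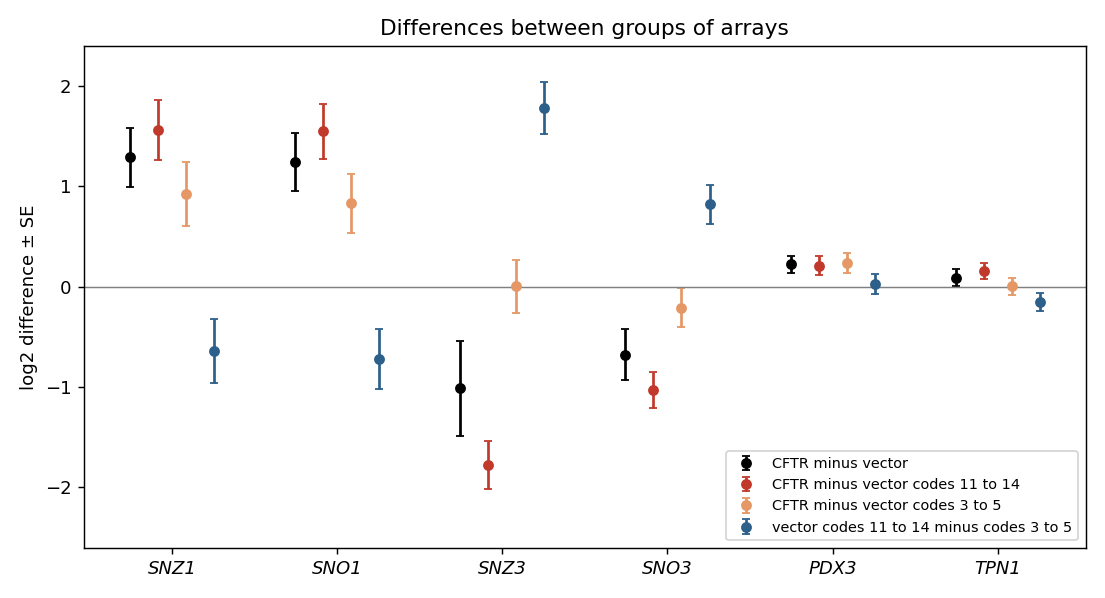
Log2 difference and SE (limma) of each gene in CFTR minus all vector arrays, CFTR minus each code range of the vector, and vector codes 11 to 14 minus codes 3 to 5. The CFTR difference of SNZ3 is -1.78 against codes 11 to 14 and 0.01 against codes 3 to 5, whereas for SNZ1 it is above 0 against both.

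Between the vector arrays themselves, SNZ3 was 3.44-fold and SNO3 1.77-fold higher in codes 11 to 14 than in codes 3 to 5. SNZ3 had 1.04 ± 0.52 (SD, n = 4) in codes 11 to 14 and -0.75 ± 0.36 (SD, n = 3) in codes 3 to 5, and SNO3 had 0.43 ± 0.39 in codes 11 to 14 and -0.40 ± 0.30 in codes 3 to 5. SNZ1 was lower in codes 11 to 14, by a log2 difference of -0.64 (SE 0.32), or -0.39 with centring on array medians. The vector levels of SNO1 are all under the background limit, so their difference between the ranges is uncertain. As measured it was -0.72 (SE 0.30), and -0.47 with that centring. With values under the limit set to it, all vector values of SNO1 become equal and the difference is 0 by construction. All 4 arrays of codes 11 to 14 lay beyond the 3 of codes 3 to 5 for SNZ3 and SNO3 (above, as for 10.8% of all genes) and for SNZ1 and, under background, SNO1 (below, as for 27.8%). PDX3 differed by 0.03 (SE 0.10), or 0.28 with centring on array medians. TPN1 differed by -0.15 (SE 0.09), which turned to 0.09 with that centring. Of the 6 genes 2 were called, SNZ3 and SNO3, both higher, beside 47.4% of all genes and 11.3% called higher. Over all genes the median difference was -0.19, and 0.06 with centring on array medians, which is the shift to set beside these values. SNZ1 was thus highest in CFTR, next in codes 3 to 5 and lowest in codes 11 to 14, with no overlap between the 3 ranges. SNZ3 and SNO3 were highest in codes 11 to 14, while CFTR and codes 3 to 5 overlapped.

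The thiamine genes, among which THI4 and the THI5 family make the 2 rings of the vitamin and THI7 takes it up, were in large part high on the same arrays as SNZ3. In CFTR against all vector arrays 0 of the 18 measured genes of a 21-gene list were called by limma. Without the adjustment, 8 of the 18 had a p under 0.05, beside 989 of the 5449 genes. All 18 differences were below 0, with a median of -0.79 beside -0.04 for all genes. Against codes 11 to 14, 12 of the 18 fell in CFTR and 0 rose, beside 8.99% of all genes that were called lower. Against codes 3 to 5 there were 0 calls by limma, beside 0.752% of all genes. An unadjusted p under 0.05 was there for 0 of the 18, beside 2273 of the 5449 genes. Between the vector ranges 9 rose in codes 11 to 14, each with every array above those of codes 3 to 5, beside 11.3% of all genes called higher, and 1 fell, PDC2, a regulator of pyruvate decarboxylase and thiamine genes (log2 difference -0.28, SE 0.10, adjusted p = 0.039), beside 36.2% of all genes called lower. That call was lost with centring on array medians, with quantile normalization and with near-copy arrays averaged.

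THI7, the thiamine transporter, had 2.55 ± 0.36 (SD, n = 4) in codes 11 to 14 and -0.85 ± 0.21 (SD, n = 3) in codes 3 to 5, a log2 difference of 3.41 (SE 0.20, adjusted p = 1.3e-05). In the 4 CFTR arrays it averaged -0.79 ± 0.25 (SD, n = 4). THI20, a kinase of the pyrimidine part, rose in codes 11 to 14 by 3.00 (SE 0.20, adjusted p = 2.6e-05), PET18 by 3.18 (SE 0.27, adjusted p = 9.6e-05) and THI73, a putative carboxylate transporter, by 3.62 (SE 0.38, adjusted p = 0.00023). PHO3, the phosphatase that strips thiamine phosphates outside the cell, rose by 1.62 (SE 0.18, adjusted p = 0.000305). The 2 means of THI73 and PET18 in codes 3 to 5, -2.24 and -1.25, lay under the background limit, so the sizes of these rises are uncertain. THI2, a transcriptional activator of the thiamine genes, rose by 1.43 (SE 0.21, adjusted p = 0.0011), with its mean in codes 3 to 5 also under that limit. THI3, a regulator that acts with it, had 0.33 ± 0.23 (SD, n = 4) in codes 11 to 14 and 0.08 ± 0.24 (SD, n = 3) in codes 3 to 5 and was not called. In CFTR minus all vector arrays the log2 differences of these regulators were -0.66 (SE 0.38, adjusted p = 0.37) for THI2, -0.40 (SE 0.13, adjusted p = 0.14) for THI3 and -0.05 (SE 0.11, adjusted p = 0.85) for PDC2. THI13, the measured gene of the THI5 family, whose probe set may read its near-identical copies, had 0.03 in vector replicate 4 and between -1.28 and -0.87 on the other 10 arrays. In CFTR against all vector arrays the smallest p of the list was that of THI6, of thiamine phosphate synthesis, with -0.32 ± 0.04 (SD, n = 4) in CFTR arrays and 0.84 ± 0.83 (SD, n = 7) in vector arrays (adjusted p = 0.13).

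**Figure D4:**
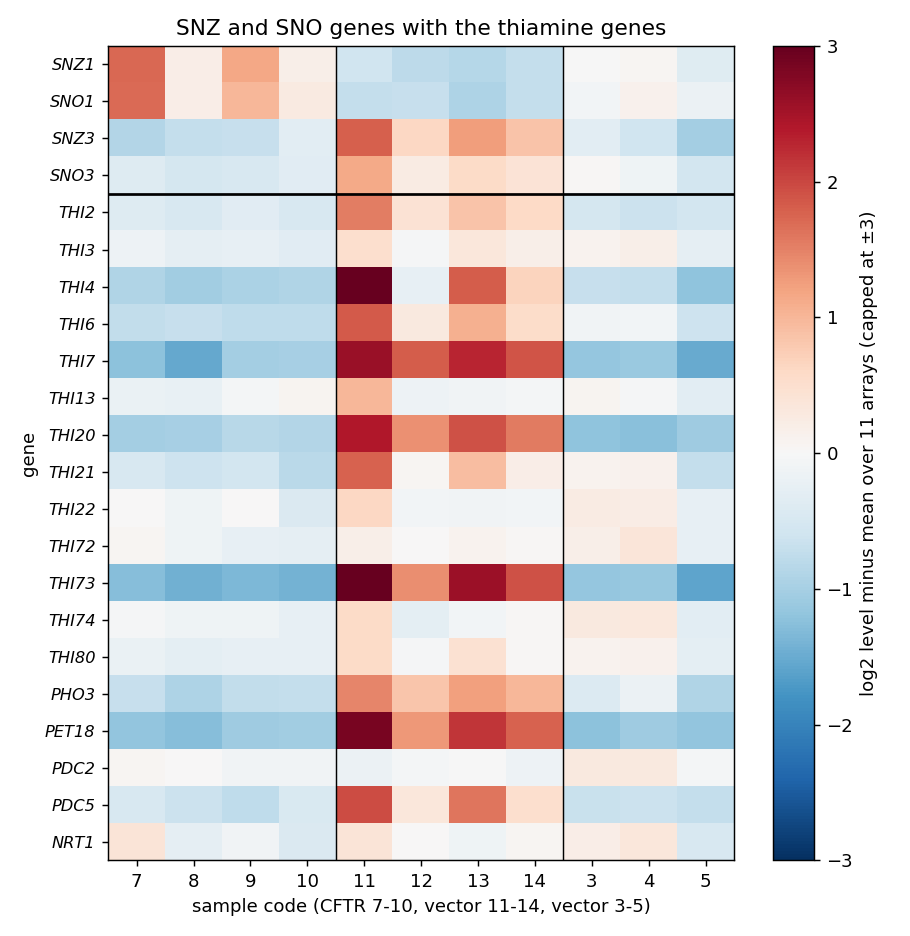
Log2 level of SNZ1, SNO1, SNZ3, SNO3 and the 18 thiamine genes on each array, minus the gene's mean over the 11 arrays (colours capped at 3), in columns by sample code. SNZ3 and SNO3 share with THI7, THI20, PET18 and THI73 the high columns of vector codes 11 to 14, with the highest level at code 11, while SNZ1 and SNO1 are high at codes 7 and 9.

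Over the 11 arrays SNZ3 had an r of 0.98 with the mean of the 18 thiamine genes, and of 0.99 over the 7 vector arrays, while SNZ1 had -0.63 and -0.69. List means were between -0.93 and -0.79 in CFTR arrays, against 0.07 to 1.23 in vector replicates 4 to 7 and -0.99 to -0.59 in vector replicates 1 to 3. Vector replicate 4 (code 11) had the highest list mean as well as the highest SNZ3 and SNO3. These correlations rest on arrays grouped by code, and no p is given.

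Genes most alike each of the 6 over the 11 arrays were sought among 4106 genes above the background limit. For SNZ3 these were THI73 (r of 0.98), YNL234W (0.98), PET18 (0.97) and DSE2 (0.97), and for SNO3 THI6 (0.98), YNL234W (0.98), DSE2 (0.96) and YOR062C (0.96). THI73 was above the background limit on 4 of the 11 arrays and PET18 on 5, codes 11 to 14 among them, so they entered this search through the range in which SNZ3 is high and their likeness to it follows from that range. SNZ1 and SNO1 shared the same 4 genes: IST3 (0.95 and 0.96), ADE1 (0.93 and 0.94), YJR112W-A (0.92 and 0.94) and PTP1 (0.91 and 0.93). SNO1 had an r of 0.99 with SNZ1 and was above the background limit on only 2 of the 11 arrays, so its list adds little to that of SNZ1. IST3, a splicing factor, varied less, with an SD of 0.15 on the log2 scale over the 11 arrays. It averaged -0.98 in CFTR arrays and -1.23 in vector arrays, the second under the background limit. IST3 thus entered this search through the CFTR arrays, where SNZ1 and SNO1 are high, and its likeness to them cannot be set apart from that. PTP1 is a tyrosine phosphatase and DSE2 a daughter cell-specific secreted protein. For PDX3 the genes were LCB3 (0.98), FUN14 (0.96), ADE17 (0.95) and AOS1 (0.93), and for TPN1 ADE2 (0.92), OST3 (0.88), YIL165C (0.86) and IVY1 (0.84). Without the 2 arrays farthest from the median of TPN1, the r of OST3 was 0.66 and that of IVY1 0.79. These were the lowest such values of all genes named in this search. IVY1 averaged -1.09 in CFTR arrays and -1.18, under the background limit, in vector arrays, so it too entered the search through the CFTR arrays. ADE1, ADE2 and ADE17 are enzymes of purine synthesis. ADE1 averaged 1.31 ± 0.25 (SD, n = 4) in CFTR arrays and 0.66 ± 0.19 (SD, n = 7) in vector arrays. ADE17 was one of the genes called in CFTR against vector, with 1.92 ± 0.36 (SD, n = 4) in CFTR arrays and 0.43 ± 0.59 (SD, n = 7) in vector arrays, which overlapped, a log2 difference of 1.49 (SE 0.29, limma adjusted p = 0.040).

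Of 4 other measured genes that handle pyridoxal phosphate, 0 were called by limma in CFTR against vector. An unadjusted p under 0.05 was found for 0 of the 4, beside 989 of the 5449 genes. BUD16, a putative pyridoxal kinase, had -0.06 ± 0.10 (SD, n = 4) in CFTR arrays and -0.05 ± 0.35 (SD, n = 7) in vector arrays, a difference whose sign turned with the scaling. BUD17, a related putative kinase, had -0.40 ± 0.12 in CFTR and -0.58 ± 0.17 in vector. YBL036C, of a conserved family of pyridoxal phosphate-binding proteins, had 0.33 ± 0.01 in CFTR and 0.13 ± 0.45 in vector. YPR127W, a putative pyridoxal reductase, had 0.59 ± 0.06 in CFTR and 0.65 ± 0.33 in vector, and its difference also turned with the scaling. In codes 11 to 14 against codes 3 to 5 of the vector YBL036C fell by 0.77 on the log2 scale (SE 0.12, adjusted p = 0.0013), BUD16 by 0.56 (SE 0.12, adjusted p = 0.0055) and BUD17 by 0.29 (SE 0.08, adjusted p = 0.017), beside a median of -0.19 over all genes. With near-copy arrays averaged, 1 of these 3 calls was left.

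Among 38 genes for enzymes that use pyridoxal phosphate as cofactor, or for subunits of them, 0 were called by limma in CFTR against vector. Their median difference was 0.07. Unadjusted, 10 of the 38 had a p under 0.05, beside 989 of the 5449 genes. SHM2, the cytosolic serine hydroxymethyltransferase, had 3.02 ± 0.06 (SD, n = 4) in CFTR arrays and 2.49 ± 0.25 (SD, n = 7) in vector arrays (log2 difference 0.53, SE 0.12, adjusted p = 0.059), with vector replicate 3 at 2.97. GCV2, of the glycine cleavage system, had 1.44 ± 0.25 in CFTR and 0.81 ± 0.36 in vector (adjusted p = 0.12), with vector replicate 3 at 1.60. AAT2, the cytosolic aspartate aminotransferase, had 2.86 ± 0.05 in CFTR and 2.67 ± 0.09 in vector (adjusted p = 0.14) and was the 1 enzyme of the list whose CFTR arrays lay wholly above the vector arrays. CHA1, a serine and threonine deaminase, had -1.39 ± 0.15 in CFTR and -1.88 ± 0.32 in vector (adjusted p = 0.15), both under the background limit. BAT2, a branched-chain aminotransferase, had -0.15 ± 0.10 in CFTR and 0.17 ± 0.20 in vector (adjusted p = 0.17). Leaving out vector replicate 3 gave 7 calls higher and 1 lower among the 38, beside 9.56% of all genes called. Over the 11 arrays PDX3 had an r of 0.85 with the mean of these enzymes, and of 0.75 over the 7 vector arrays.

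SNZ1 is known as a target of Gcn4, the activator of amino acid synthesis genes. The GCN4 transcript had 3.37 ± 0.06 (SD, n = 4) in CFTR arrays and 3.37 ± 0.15 (SD, n = 7) in vector arrays, though Gcn4 is controlled mainly in translation, which arrays do not show. Of the 15 measured genes of a list of GCN4 and amino acid synthesis genes under its control, 0 were called by limma in CFTR against vector. Unadjusted, 2 of the 15 had a p under 0.05, beside 989 of the 5449 genes. The list median was 0.03, and turned below 0 with quantile normalization. HIS4, of histidine synthesis, had 2.82 ± 0.20 in CFTR and 2.17 ± 0.47 in vector (adjusted p = 0.15), and ARG1, of arginine synthesis, 2.96 ± 0.19 in CFTR and 2.74 ± 0.13 in vector (adjusted p = 0.24). The CFTR arrays of HIS4 were 2.57, 3.06, 2.85 and 2.83 in replicates 1 to 4, so that replicate 2 was highest there as in SNZ1 and replicate 1 lowest. Over the 11 arrays SNZ1 had an r of 0.62 with the list mean, and 0.24 without the 2 arrays farthest from the median of SNZ1, so that it rested on those arrays. Over the 7 vector arrays this r was 0.30. With the GCN4 transcript SNZ1 had an r of -0.27 over the 11 arrays and of -0.94 over the 7 vector arrays.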

How the data were processed

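RNA of 4 CFTR and 7 vector samples was purified after hot phenol extraction and turned into labelled cRNA for Affymetrix hybridisation, per the labels' protocols. The authors deposited linear intensity values per probe set. Tested on the table, each of the 11 arrays averages 1 over its 10715 probe sets, so values are relative within an array. How background was corrected and probes were summarised, and with which software, is not given in the sources used here. CFTR replicates are numbered in accession order, vector replicates as in the labels.

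Gene names came from the platform annotation and the R64 gene table, used for names and gene order only: 5498 probe sets matched 1 S. cerevisiae gene, and where several matched a gene (47 genes) the brightest stood for it. Values were log2-transformed and fitted over all 5449 genes by lmFit and trended eBayes of limma 3.58.1 (R 4.3.3), calling genes at a Benjamini-Hochberg adjusted p under 0.05. CFTR and vector formed the main model, and the code ranges of the vector a second one. The fit was tested on simulated data.

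The 6 genes and all gene lists were chosen with earlier results of these data known. Named are the 6, the genes of pyridoxal phosphate handling, GCN4, THI2, THI3 and PDC2, up to 5 genes of each list by smallest p in a comparison, and the 4 genes most alike each of the 6 by Pearson r. THI13, LCB2, and values of THI7 in CFTR arrays, were added after their values were seen. No sequence was used here. Alternatives were quantile normalization, median centring, no trend, robust eBayes, array weights, a filter (4111 genes) and a floor at the background limit, the mean of probe sets, near-copy arrays averaged (vector replicates 1 with 2, and 5 with 7), either control range alone and each array left out. Vector replicate 6, with SDs of 0.13 and 0.12 to replicates 5 and 7, was kept as an array of its own. The averaging thus still counts 1 nearly alike array. Figures used matplotlib 3.10.9.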

Additional observations from a re-analysis of the deposited data

Results flagged for a closer look

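Several single arrays stood apart from their group by Dixon's criterion, which chance meets in about 1 of 20 groups. It was applied to the 6 genes and to most other named genes, each in CFTR, all vector and vector codes 11 to 14 arrays. With so many groups tested, and some nested in others, several such arrays are to be met by chance, and nothing is read from them. Among the vector arrays of codes 11 to 14, SNO1 was lowest in replicate 6 at -2.98, under the background limit. YPR127W was highest in vector replicate 4 at 1.34, both among the 7 vector arrays and among codes 11 to 14, on the array that also had the highest SNZ3. GCV2 stood at 1.60 and BAT2 at -0.26 in vector replicate 3, each within the range of the CFTR arrays or beside it. In codes 11 to 14, replicate 6 was lowest in GCV2 at 0.58 and in MLS1, malate synthase, at -2.84, the second under the background limit. STR2, a cystathionine synthase that uses pyridoxal phosphate, was highest in CFTR replicate 2 at -0.12, the array with the highest SNZ1.

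A probe set named snz1 for a gene ID that is not in the R64 table reached -1.05 in CFTR replicate 2, just above the background limit of -1.17. It had -2.57, -1.70 and -1.55 in CFTR replicates 1, 3 and 4, and between -2.95 and -1.81 in the vector arrays. What it detects was not tested.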

How the results depend on the processing

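No paired analysis was possible because the CFTR titles carry no replicate numbers. The median difference of the 6 genes, 0.16 in CFTR against vector, lies between PDX3 and TPN1 because the others differ in both directions, so it says nothing of their stability. SNO1 itself was 1.24 as reported and 0.23 with the floor at the background limit. Between the vector ranges it was -0.72 as reported, and 0 by construction with the floor, since all its vector values lie under the limit. Nothing is read from counts of the 6 called, since they were chosen on these arrays. The number of the 6 called, 0 as reported, was 2 with quantile normalization and with median centring (SNZ1 and SNO1), 5 against codes 11 to 14 alone (all but TPN1) and 6 with array weights, where all genes gave 3.67%, 3.17%, 43.9% and 60.7%. It ranged from 0 to 4 when each array was left out, with 4 without vector replicate 3. Genes of the other lists called were 0 as reported, 3 with quantile normalization, 1 with median centring, 57 with array weights and 50 against codes 11 to 14 alone, and 0 to 15 when each array was left out, with 15 without vector replicate 3. Array weights ran from 0.069 to 5.51, and their estimation stopped before it converged. Over all genes the 50 calls became 1 with near-copy arrays averaged and against codes 3 to 5 alone, 200 with quantile normalization, 173 with median centring, and 2 to 521 when each array was left out. Between the vector ranges 2 of the 6 were called, and 6 with array weights, where 86.3% of all genes were. The 2585 calls over all genes there became 539 with near-copy arrays averaged. SNO1 was dropped by the filter on dim genes. Signal near background limits SNO1, and probe-level values were not used here, so cross-reading of the SNZ3 and SNO3 sets was not tested.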

Other observations

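Genes known to rise when glucose is used up were set beside SNZ1, which is known from stationary phase. Of 13 measured, 0 were called by limma in CFTR against vector. Unadjusted, 1 of the 13 had a p under 0.05, beside 989 of the 5449 genes. The median difference of 0.04 turned below 0 with array weights, with near-copy arrays averaged and against codes 11 to 14 alone, among others. ICL1, isocitrate lyase, had -2.25 ± 0.07 (SD, n = 4) in CFTR arrays and -1.96 ± 0.21 (SD, n = 7) in vector arrays, and PCK1, of gluconeogenesis, -1.04 ± 0.14 in CFTR and -0.73 ± 0.34 in vector. For 8 of the 13, ICL1, MLS1, FBP1, JEN1, CAT2, SFC1, SPG1 and SPG4, the means of both groups lay under the background limit, so that these genes could show little here.

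Between the vector ranges 4 of these 13 rose in codes 11 to 14 and 1 fell, beside 11.3% of all genes called higher and 36.2% called lower. The split was 7 and 0 with centring on array medians, 5 and 0 with quantile normalization and 3 and 0 with near-copy arrays averaged. HSP12, a small membrane-associated heat shock protein, had 3.16 ± 0.30 (SD, n = 4) in codes 11 to 14 and 0.89 ± 0.98 (SD, n = 3) in codes 3 to 5 (limma adjusted p = 0.0019), with vector replicate 3 at 2.01 and replicates 1 and 2 at 0.35 and 0.30. PCK1 rose by 0.58 on the log2 scale (SE 0.11, adjusted p = 0.0031) and SSA3, an Hsp70 of stationary phase, fell by 0.29 (SE 0.08, adjusted p = 0.017), a call lost under all 3 of these alternatives. SNZ1 was lower in codes 11 to 14, as described above, and was not called there. Whether glucose use differed between the ranges was not tested.

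BIO3, a transaminase of biotin synthesis that uses pyridoxal phosphate, varied widely on these arrays. It had -1.30, 1.69, -0.56 and -0.07 in CFTR replicates 1 to 4. The vector arrays had 2.52, 2.80, 1.96 and 2.78 in replicates 4 to 7 and -0.54, -0.64 and -0.57 in replicates 1 to 3. It rose in codes 11 to 14 against codes 3 to 5 by 3.10 on the log2 scale (SE 0.53, adjusted p = 0.0022). In CFTR it was highest in replicate 2, as SNZ1 was.

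Of the 38 enzymes, 14 were called between the vector ranges, 5 higher and 9 lower in codes 11 to 14, beside 11.3% and 36.2% of all genes, so that the enzymes' share of 36.8% called was below the 47.4% of all genes. Centring on array medians turned the split to 8 and 3, while it was 6 and 10 with quantile normalization and 1 and 4 with near-copy arrays averaged. STR2 fell there by 0.99 (SE 0.12, adjusted p = 0.00050), ALT2, an alanine transaminase homolog, by 1.04 (SE 0.14, adjusted p = 0.00091) and LCB1, a subunit of serine palmitoyltransferase, by 0.44 (SE 0.06, adjusted p = 0.00082), the last a call lost with centring. LCB2, another subunit of that enzyme, went the other way, with 1.87 ± 0.02 (SD, n = 4) in codes 11 to 14 and 1.71 ± 0.04 (SD, n = 3) in codes 3 to 5. Of the 15 amino acid genes 3 rose and 6 fell, beside the same shares of all genes. The split was 4 and 2 with centring, 1 and 7 with quantile normalization and 1 and 3 with near-copy arrays averaged. HIS4 fell by 0.78 (SE 0.16, adjusted p = 0.0040, lost with centring), HIS7 by 0.71 (SE 0.11, adjusted p = 0.0017) and TRP2 by 0.67 (SE 0.09, adjusted p = 0.00088), while ARG3 rose by 0.59 (SE 0.12, adjusted p = 0.00435).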
